A study of Rattus norvegicus with 3 samples.

Results

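The collagen genes of the rat were taken by name, as every gene symbol made of Col, a number, the letter a and a second number. This rule gave 44 of the 34034 gene names of the count table, and no measured value entered the choice. They were sorted by the kind of assembly their chains form into 11 fibrillar genes, 6 basement membrane genes of type IV collagen and 27 genes of other classes. Of the 44 genes, 39 had at least 100 UMIs (unique molecular identifiers, each counting 1 captured RNA molecule) over all annotated stromal cells. The remaining 5 had 4 to 54 UMIs and are described only by their counts.

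The levels come from 1 droplet single-cell RNA library (10x Genomics) of stromal cells. These were taken from thymi of Lewis rats, an inbred strain, at an age of 8 weeks. They had been sorted for lack of CD45, a surface protein of blood-derived cells, after digestion with enzymes that degrade collagen itself. A second library of the same age and strain held thymocytes, immature T cells and the bulk of thymic cells, and is used as a background. No treatment and no genetic change is named in the labels, and the number of animals is not given in the sources used here. The cell labels are the authors' own and were drawn from expression, collagen genes possibly included, with mouse reference data, so a collagen level by label is a description. Each library is 1 sample, so no comparison has a replicate check, no test was run, and all intervals are exact 95% intervals that cover counting error only. Of 16160 stromal barcodes the authors labelled 13226, and these held 131624350 UMIs with a median of 9087.5 UMIs per cell. The library of thymocytes held 8546 annotated cells with 64440495 UMIs, and 28 barcodes occurred in both libraries.

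Levels are given as CPM, the UMIs of a gene per 1000000 UMIs of all cells under a label, for the 18 labels with at least 50 cells unless another label is named. The labels TMC1 to TMC4 and capFb were pooled as fibroblasts (8216 cells), the EC labels as endothelium (1072 cells), vSMC/PC stands for mural cells (452 cells), the TEC labels for thymic epithelium (2304 cells), and the labels Thymocyte, B cell and Myeloid for blood-derived cells (1095 cells). The files do not spell the abbreviations out. Most of the markers examined were highest in a label of the matching name: Pdgfra, Lum and Dpt were highest in TMC2, Pi16 in capFb at 4894 CPM, Rgs5, Acta2, Myh11 and Notch3 in vSMC/PC, Cdh5 and Kdr in EC:capEC, Selp and Ackr1 in EC:vEC, Prss16 in TEC:cTEC, Krt5 in TEC:mTEC1 and Aire in TEC:mTEC2. Krt14 and Ccl21, listed as markers of medullary epithelium, were instead highest in TEC:cTEC at 4142 CPM and in TMC4 at 22080 CPM. The arterial markers Gja5 and Bmx were highest in EC:capEC and EC:vEC, while their sum was 39.9 CPM in EC:aEC, 35.7 in EC:capEC and 28.2 in EC:vEC. EC:aEC, the label whose name points to arteries, is not interpreted by its name here.

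Collagens are triple helices of 3 chains that are secreted into the space between cells. Fibrillar collagens assemble into the banded fibrils that give a tissue its tensile strength, and type IV collagen forms the flat network inside basement membranes, the sheets under epithelium and around vessels. Other classes bind to fibrils, form beaded filaments or anchoring fibrils, or cross the plasma membrane of the cell that makes them. In the thymus, collagen lies in the capsule, in the septa that run inward from it, and around vessels and epithelium. CPM of different collagen genes depend on how well each transcript is captured, so levels are compared between labels for 1 gene or 1 fixed group of genes, and the proportion of 2 chains is compared only between labels.

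The 44 genes made up 3.06% of all UMIs of the pooled fibroblast labels. The share was highest in capFb at 4.86%, followed by TMC1 at 4.18%, TMC2 at 2.56%, TMC3 at 1.97% and TMC4 at 1.32%. Over all annotated cells, fibrillar genes gave 74.7% of collagen UMIs, type IV genes 5.52% and the other classes 19.8%. TMC2 was the label with the highest level for 10 of the 39 genes, capFb for 7 and TMC4 for 6, while epithelial labels held the highest level of 10 and EC:capEC that of Col4a1 and Col4a2. By lineage, the highest label was a fibroblast label for 26 of the 39 genes, against 18.0% of all 16162 genes with at least 100 UMIs. It was epithelial for 10 (37.5% of all genes), endothelial for 2 (12.5%), mural for 1 (4.11%) and blood-derived for 0 (28.0%).

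**Figure D1:**
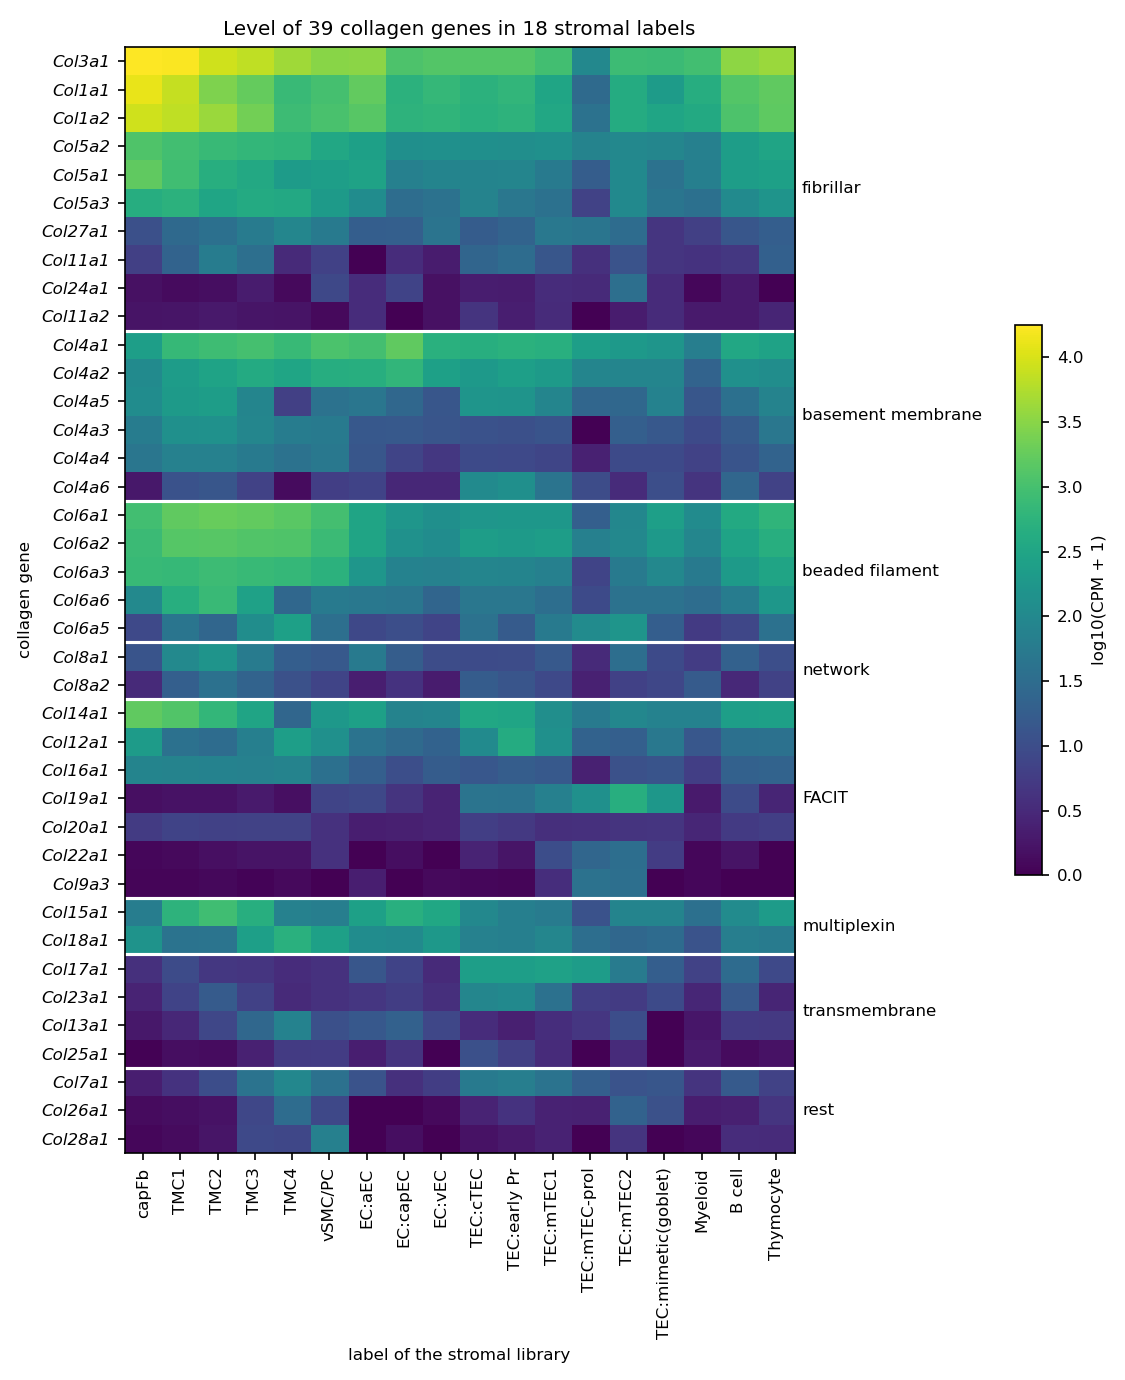
Level of the 39 collagen genes with at least 100 UMIs (rows, by class) in the 18 labels of at least 50 cells (columns), coloured by log10 of CPM + 1. The labels capFb and TMC1 carry the highest levels of Col1a1, Col1a2 and Col3a1, Col4a1 peaks in EC:capEC at 1649 CPM, and Col17a1, Col4a6, Col23a1 and Col19a1 stand out in epithelial columns.

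Many barcodes outside the fibroblast labels carried fibroblast RNA, and this bears on every level quoted below. Of 5010 cells outside the fibroblast labels in these counts, 2196 had at least 1 UMI of Pdgfra, Dpt or Lum, genes that mark fibroblasts. In the pooled epithelial labels the median cell had 1 UMI of Col3a1, but 319 of 2304 cells (13.8%, exact Clopper-Pearson interval 12.5 to 15.3) had 10 or more, and these held 94.0% of the Col3a1 UMIs. All 319 also carried a UMI of Pdgfra, Dpt or Lum, against 34.7% of the other epithelial cells, and their median depth was 18650 UMIs against 10740. The blood-derived labels had 182 of 1095 cells at 10 or more Col3a1 UMIs, which held 95.6% of the Col3a1 UMIs and had a median depth of 14850 against 4551 UMIs. All 5 fibroblast markers were detected in each of the 18 labels, and their summed level ran from 196 CPM in TEC:mTEC-prol to 7494 CPM in Thymocyte outside the fibroblast labels, and from 5641 CPM in TMC4 to 26970 CPM in TMC2 among them. Whether such barcodes hold a second cell, a fragment of one or free RNA was not tested. The main levels outside the fibroblast labels are therefore also given over cells without a UMI of Pdgfra, Dpt or Lum, called marker-free cells below. Fibroblast cells were not filtered, so genes that travel with fibroblast RNA fall by construction in the other lineages only. A deep cell is more likely to carry such a UMI, and a cell making a marker itself is also dropped. Of the 452 mural cells, 166 were marker-free. A level given once, as for genes that are not collagens, is over all cells.

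The summed level of the 11 fibrillar genes was highest in capFb, TMC1, TMC2 and TMC3. Over all cells the label Thymocyte, at 8016 CPM, stood above TMC4 at 7297 CPM, but its marker-free cells held 565 CPM. The sum was 23500 CPM in the pooled fibroblasts against 2680 CPM in epithelium, an 8.77-fold difference (8.70 to 8.83). It was 3091 CPM in endothelium, 4104 CPM in blood-derived cells and 6089 CPM in mural cells. In marker-free cells the same sums were 275 CPM in epithelium, 331 CPM in endothelium, 228 CPM in blood-derived cells and 1658 CPM in mural cells, so the difference from fibroblasts to epithelium became 85.4-fold. The median cell held 125 fibrillar UMIs in fibroblasts, 14 in mural cells and 2 or 3 in each of the other lineages. TEC:mTEC-prol, which had the lowest level of fibroblast markers, also had the lowest fibrillar level, 314 CPM.

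**Figure D2:**
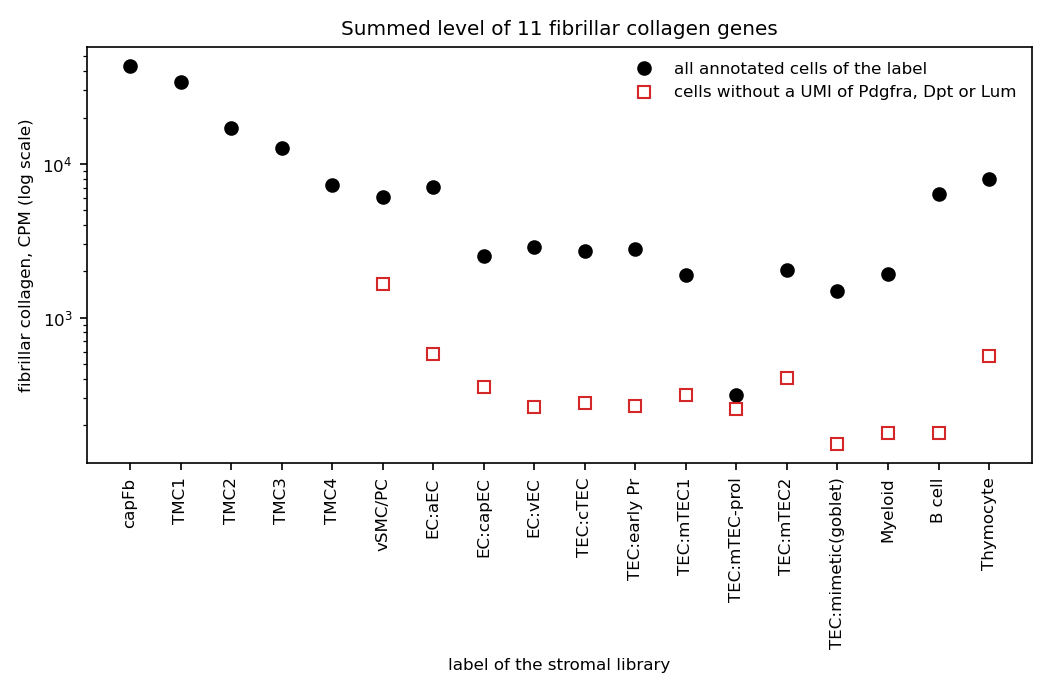
Summed level of the 11 fibrillar genes in CPM (log scale) by label: black points show all cells of a label and open red squares the cells without a UMI of Pdgfra, Dpt or Lum, for labels outside the fibroblasts. The fibroblast labels run from 7297 CPM in TMC4 to 43350 CPM in capFb, and apart from TEC:mTEC-prol the labels to the right of them drop by several fold once marker-carrying cells are left out, with vSMC/PC remaining the highest at 1658 CPM.

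Col1a1 and Col1a2 encode the chains of type I collagen, the main fibril of capsule and septa. Col1a1 stood at 13160 CPM in capFb, 7465 in TMC1, 2745 in TMC2, 1797 in TMC3 and 757 in TMC4, and all 5 counting intervals were separate. Every capFb cell carried a Col1a1 UMI, with a median of 124, against a median of 5 in TMC4. Outside fibroblasts, the mural label held 996 CPM over all cells and 97.5 CPM over marker-free cells, and epithelium 584 and 28.1 CPM. Among the fibroblast labels, the spread between cells was widest in TMC3, where the top 10% of cells held 60.5% of the Col1a1 UMIs against 27.9% in capFb.

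The proportion of the type I chains also differed among fibroblast labels. Col1a1 gave 59.5% of the UMIs of the pair in capFb (59.3 to 59.6), 51.1% in TMC1, 48.0% in TMC4, 44.7% in TMC3 and 40.3% in TMC2 (40.1 to 40.6). The pooled fibroblast value was 52.0%. The levels of both genes nevertheless ran closely together, with a Pearson r of 0.99 between them over the 18 labels on the log2(CPM + 1) scale. That correlation, like those given below, describes labels of 1 library that share its background RNA and carries no p-value.

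Col3a1 encodes type III collagen, which forms thin fibrils together with type I in stretchable tissues. It was high in capFb at 17900 CPM and TMC1 at 17110, lower in TMC2 at 8789 and TMC3 at 7106, and lowest among fibroblasts in TMC4 at 4434. Relative to Col1a1, Col3a1 took 57.6% of the UMIs of both in capFb, 69.6% in TMC1, 76.2% in TMC2, 79.8% in TMC3 and 85.4% in TMC4, the reverse of the order of the fibrillar sum. In the mural label 196 of 452 cells had 10 or more Col3a1 UMIs, and the median cell had 7. Mural cells held 3150 CPM over all cells and 766 CPM over marker-free cells, and marker-free epithelium and endothelium held 89.0 and 134 CPM.

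Type V collagen, which starts type I fibrils and limits their width, has the chains Col5a1, Col5a2 and Col5a3. Col5a1 followed the type I pattern, with 1661 CPM in capFb, 893 in TMC1, 464 in TMC2, 367 in TMC3 and 211 in TMC4. Col5a2 varied much less among the same labels, from 613 CPM in TMC4 to 1205 in capFb, so that Col5a1 gave 58.0% of the UMIs of this pair in capFb and 25.6% in TMC4. Col5a3 was highest in TMC1 at 549 CPM, and TMC4 at 367 CPM was above TMC2 at 312 CPM. Among fibroblast labels TMC4 was thus lowest for Col5a1 and Col5a2 and intermediate for Col5a3.

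The minor fibrillar genes had other patterns. Col11a1, a chain of the cartilage collagen type XI, was highest in TMC2 at 58.9 CPM and lowest among fibroblasts in TMC4 at 2.25, with 30.5 CPM in TEC:early Pr and 26.9 CPM in its marker-free cells. Col27a1 ran the other way, with 89.0 CPM in TMC4, 58.7 in TMC3 and 9.90 in capFb. Col24a1 had 177 UMIs in all, and its highest level, 34.3 CPM in TEC:mTEC2, rested on 30 UMIs in 6 cells of which 1 held 18. Col11a2 had 141 UMIs and at most 3.41 CPM in any of the 18 labels. Col2a1, the main cartilage fibril, had 44 UMIs and was 0 in TMC2, TMC3, TMC4 and capFb.

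Type IV collagen had no such concentration in fibroblasts. Its 6 genes summed to 1715 CPM in mural cells, 1617 in endothelium, 1280 in fibroblasts, 875 in epithelium and 311 in blood-derived cells. Relative to fibroblasts, the mural level was 1.34-fold (1.30 to 1.38), the endothelial 1.26-fold (1.24 to 1.29) and the epithelial 0.684-fold (0.674 to 0.693). These pools were uneven. Among fibroblasts the sum was 573 CPM in capFb, 1462 CPM in TMC1 to TMC4 pooled and 1628 CPM in TMC3 alone. Within endothelium it was 2320 CPM in EC:capEC, 1493 CPM in EC:aEC and 781 CPM in EC:vEC. In marker-free cells the mural sum was 2311 CPM, the endothelial 1674, the epithelial 826 and the blood-derived 111. The class is a set of 3 gene pairs, and each pair had its own distribution over the lineages.

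In the genome the pairs lie head to head, each gene starting on the opposite strand from its partner, so that both share the stretch of DNA between their start sites. The start sites in the RefSeq annotation of rat assembly GRCr8 are separated by 76 bases for Col4a2 and Col4a1, 412 for Col4a4 and Col4a3, and 1414 for Col4a6 and Col4a5. These sequences are shown because the pairs differ in how closely their partners followed each other. They come from GRCr8, while the counts were made on mRatBN7.2. Each runs 5′ to 3′, with capitals for the GC box (GGGCGG or its complement CCGCCC). The line for Col4a2 and Col4a1 holds all bases between the start sites, on the plus strand at chr16:84885521-84885596, read toward Col4a1. The others hold the 150 bases before each start site on the strand of the gene, for Col4a4 at chr9:91323578-91323727 (minus), Col4a3 at chr9:91323840-91323989 (plus), Col4a6 at chrX:109905945-109906094 (minus) and Col4a5 at chrX:109907209-109907358 (plus).
Col4a2 to Col4a1: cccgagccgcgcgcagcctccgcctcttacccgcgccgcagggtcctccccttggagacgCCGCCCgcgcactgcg
Col4a4: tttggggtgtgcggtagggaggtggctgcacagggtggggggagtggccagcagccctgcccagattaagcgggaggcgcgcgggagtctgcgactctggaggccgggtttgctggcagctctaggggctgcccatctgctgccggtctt
Col4a3: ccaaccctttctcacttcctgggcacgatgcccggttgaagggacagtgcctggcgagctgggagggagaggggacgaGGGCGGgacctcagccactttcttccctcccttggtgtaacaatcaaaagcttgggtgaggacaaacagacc
Col4a6: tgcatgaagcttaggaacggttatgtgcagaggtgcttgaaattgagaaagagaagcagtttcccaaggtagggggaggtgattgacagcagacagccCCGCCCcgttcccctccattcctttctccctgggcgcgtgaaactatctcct
Col4a5: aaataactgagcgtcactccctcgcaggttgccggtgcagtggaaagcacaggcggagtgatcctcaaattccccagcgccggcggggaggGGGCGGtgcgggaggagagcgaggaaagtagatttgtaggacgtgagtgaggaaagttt

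The 76 bases between Col4a2 and Col4a1 are 78.9% G and C. The 150 bases shown for the others are 68.0% for Col4a4, 59.3% for Col4a3, 58.7% for Col4a5 and 53.3% for Col4a6. These windows differ in length, and a link between G and C content and levels was not tested. Promoter sequence was at hand for 35 of the 44 genes. Over the 250 bases before the start site, the GC box (GGGCGG on either strand) was found in 19 of these 35 (54.3%), against 30.5% of all 33469 rat promoters in the table. CCAAT on either strand was found in 11 (31.4%, against 34.0%), and TATAAA on either strand in 4 (11.4%, against 12.9%). The windows of Col4a1 and Col4a2 overlap, as do those of Col4a3 and Col4a4, so the 35 are not independent. The GC box between Col4a2 and Col4a1 counts for both genes. A single window was kept for each collagen gene, while the 33469 promoters were not reduced in this way. These counts describe letters in the windows and say nothing of any factor.

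Col4a1 and Col4a2 make the network found in nearly all basement membranes, and their levels ran together, with r of 0.985 over the 18 labels. Col4a1 was highest in EC:capEC at 1649 CPM, then vSMC/PC at 1129, TMC3 at 999, EC:aEC at 955, TMC2 at 842, TMC4 at 727 and TMC1 at 702. The intervals of TMC3 and EC:aEC overlapped, as did those of TMC4 and TMC1. EC:vEC at 494 CPM and capFb at 242 CPM were lower, and the epithelial labels early Pr, mTEC1 and cTEC were at 528, 473 and 470 CPM. Col4a1 gave 70.9% of the UMIs of the pair in endothelium, 72.9% in fibroblasts, 72.0% in mural cells and 68.6% in epithelium. Myeloid cells had 63.8 CPM over all cells and 18.7 CPM over marker-free cells.

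Col4a3 and Col4a4, which with Col4a5 form the network known from the glomerulus of the kidney, were highest in fibroblast labels. Col4a3 stood at 142 CPM in TMC2, 136 in TMC1, 89.5 in TMC3, 60.3 in TMC4 and 60.1 in capFb, and the intervals of the first pair and of the last pair overlapped. The mural label held 53.7 CPM over all cells and 46.5 over marker-free cells, while endothelium and epithelium dropped from 13.5 and 10.4 CPM to 3.07 and 0.6999. Col4a4 followed Col4a3 with r of 0.946, and its mural level, 63.5 CPM in marker-free cells, was slightly above the 59.3 CPM of fibroblasts.

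Col4a5 and Col4a6, which can also form a network of their own in smooth muscle and some epithelia, parted company between lineages, with r of 0.621. Col4a5 was present in fibroblasts at 149 CPM and in epithelium at 124 CPM. Col4a6 was at 83.6 CPM in epithelium and 7.24 CPM in fibroblasts, an 11.6-fold difference (10.5 to 12.7). As a result Col4a5 gave 59.7% of the UMIs of the pair in epithelium (58.4 to 60.9) and 95.4% in fibroblasts. Within epithelium Col4a6 was highest in early Pr at 128 CPM and cTEC at 108 CPM, lower in mTEC1 at 42.6 CPM and at 2.29 CPM in mTEC2, where 2 UMIs were counted. Marker-free cells gave 94.2 CPM for Col4a6 and 123 CPM for Col4a5 in epithelium, so neither level rested on the marker-carrying barcodes.

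**Figure D3:**
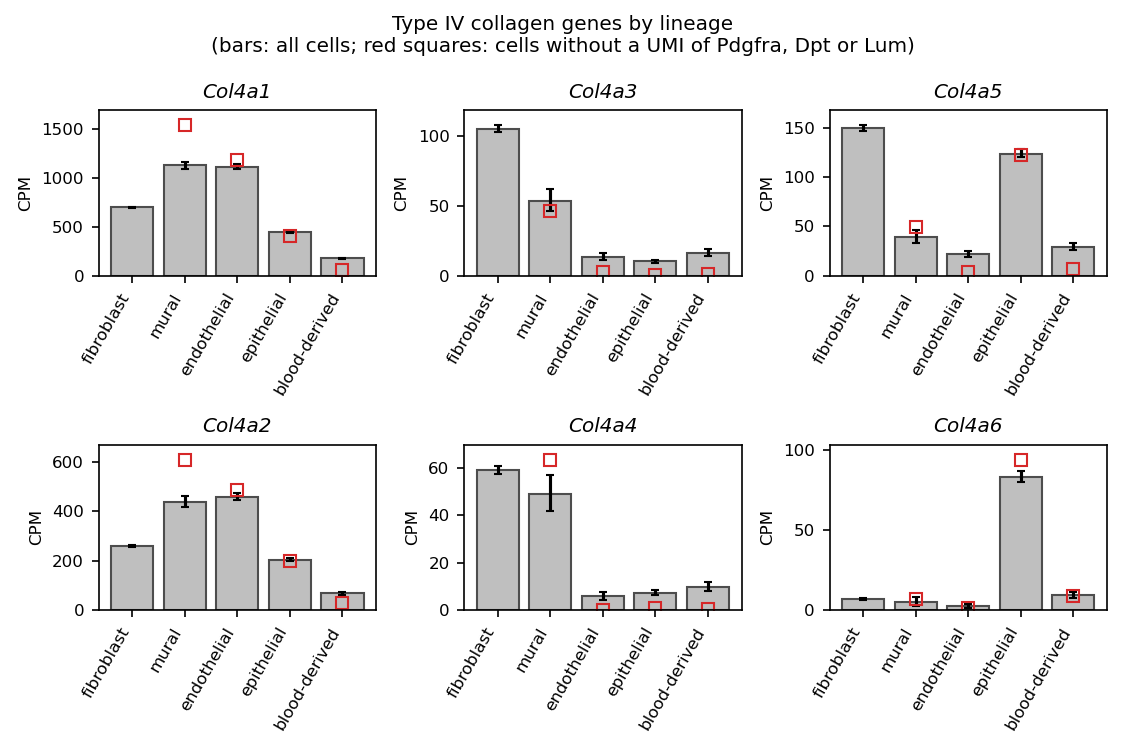
Level in CPM of the 6 type IV genes in the 5 lineages, 1 column of panels for each head-to-head pair; bars show all cells with exact 95% counting intervals and red squares the cells without a UMI of Pdgfra, Dpt or Lum. Col4a1 and Col4a2 are highest in mural and endothelial cells, Col4a3 and Col4a4 in fibroblasts and mural cells, and Col4a6 is at 83.6 CPM in epithelium against 7.24 CPM in fibroblasts while Col4a5 is high in both.

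Type VI collagen forms beaded filaments between fibrils and basement membranes, with the chains Col6a1, Col6a2 and 1 further chain such as Col6a3. Col6a1 was 1846 CPM in TMC2, 1704 in TMC3, 1630 in TMC1, 1449 in TMC4, 957 in vSMC/PC and 907 in capFb. The fibrillar order was thus not repeated, since capFb was the lowest of the fibroblast labels here. Col6a2 and Col6a3 followed Col6a1 with r of 0.964 and 0.99. In marker-free cells Col6a1 was 517 CPM in mural cells and between 16.1 and 27.2 CPM in the other lineages. Col6a2 differed from Col6a1 in epithelium, where marker-free cells held 91.7 CPM of Col6a2 and 19.0 CPM of Col6a1.

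The alternative chains Col6a5 and Col6a6 were distributed differently, with r of -0.01 over the 18 labels. Col6a6 was 771 CPM in TMC2, 455 in TMC1, 269 in TMC3, 99.6 in capFb and 25.5 in TMC4. Col6a5 was 259 CPM in TMC4, 118 in TMC3, 43.9 in TMC1, 24.02 in TMC2 and 7.80 in capFb. Both were low in capFb. Col6a6 gave 97.0% of the UMIs of the pair in TMC2 and 8.97% in TMC4. Col6a5 was also present in TEC:mTEC2 at 162 CPM and in TEC:mTEC-prol at 113 CPM, with 205 and 94.6 CPM in their marker-free cells. The remaining chain, Col6a4, had 54 UMIs in all, of which 8 were in TEC:mTEC2.

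Among the collagens that sit on fibril surfaces, Col14a1 followed the order of the fibrillar sum over the fibroblast labels. It was 1657 CPM in capFb, 1255 in TMC1, 657 in TMC2 and 304 in TMC3, and 24.4 CPM in TMC4, which was the lowest of the 18 labels. Epithelium held 241 CPM over all cells and 192 CPM over marker-free cells, with cTEC at 339 CPM and early Pr at 314 CPM. Col12a1, its close relative, had another pattern, with its highest level in early Pr at 408 CPM, then TMC4 at 239, capFb at 211 and mTEC1 and vSMC/PC at 134. In early Pr 68.7% of cells carried a Col12a1 UMI (24.5% after thinning each cell to 1000 UMIs), against 4.87% (0.517% thinned) of the cells labelled Thymocyte, whose median depth was 2648 UMIs against 10980.

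Col16a1, another fibril-associated chain, was nearly even over the 5 fibroblast labels, from 72.4 CPM in TMC3 to 82.4 CPM in capFb. Col20a1 was also even there, from 4.39 to 6.06 CPM. Col8a1 and Col8a2, which build a hexagonal network in vessel walls and under corneal endothelium, were highest in TMC2 at 159 and 37.6 CPM and low in capFb at 11.7 and 2.17 CPM. Col10a1, a cartilage network collagen, had 18 UMIs, and Col9a1 and Col9a2, cartilage chains carried on fibrils, had 4 and 48. Of the 48 Col9a2 UMIs, 19 came from 1 TEC:mTEC2 cell.

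Col15a1 and Col18a1, which lie at basement membranes and release the angiogenesis-inhibiting fragments restin and endostatin, divided the fibroblast labels. Col15a1 was 880 CPM in TMC2, 558 in TMC1 and 467 in TMC3, against 73.0 in TMC4 and 62.0 in capFb. Col18a1 was 506 CPM in TMC4, 248 in TMC3 and 152 in capFb, against 42.5 in TMC2 and 39.9 in TMC1. Col15a1 therefore gave 95.4% of the UMIs of the pair in TMC2 and 12.6% in TMC4, with r of 0.209 between them over the 18 labels. Endothelium held both, with Col15a1 at 484 CPM in EC:capEC and 341 in EC:vEC and Col18a1 at 109 and 183 CPM, and leaving out marker-carrying cells gave 424 CPM for Col15a1 in endothelium as a whole. The mural label was the reverse of EC:capEC, with 259 CPM of Col18a1 and 64.9 of Col15a1, and 188 and 7.93 CPM in marker-free cells.

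Of the 4 transmembrane collagens, 3 had their highest level in an epithelial label. Col17a1, a component of hemidesmosomes that tie epithelial cells to their basement membrane, was 271 CPM in mTEC1, 242 in early Pr, 237 in cTEC and 221 in mTEC-prol, and the intervals of the last 3 overlapped. It was 57.1 CPM in mTEC2 and 17.5 CPM in TEC:mimetic(goblet), the goblet label. Pooled fibroblasts held 4.27 CPM, and the B cell label held 30.1 CPM over all cells and 45.9 CPM over marker-free cells. All 4 epithelial markers (Epcam, Krt8, Krt18 and Krt5) were detected in the B cell label and summed to 774 CPM, against 80.4 CPM in Thymocyte, and their part in its Col17a1 level was not tested. Col23a1 had a narrower epithelial pattern, at 104 CPM in early Pr, 89.4 in cTEC and 37.5 in mTEC1, with 7.75 CPM in fibroblasts. Col13a1, known from the neuromuscular junction, was instead highest in TMC4 at 74.6 CPM, then TMC3 at 25.0 and EC:capEC at 20.2. Col25a1 had 263 UMIs, with 9.82 CPM in cTEC as its highest level.

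The stretch before the start of Col17a1 is shown because the gene had the largest lead of epithelium over the next lineage, 17.4-fold, and is 1 of the 4 members with a TATAAA match, beside Col1a2, Col10a1 and Col13a1. It lies on the minus strand of GRCr8 at chr1:256518858-256519007 and ends at the start site, with capitals for TATAAA and for ATTGG, the complement of CCAAT.
Col17a1: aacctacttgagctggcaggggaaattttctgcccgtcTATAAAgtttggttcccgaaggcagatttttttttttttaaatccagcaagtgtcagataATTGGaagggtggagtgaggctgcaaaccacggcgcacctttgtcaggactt

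Single labels rarely led a collagen gene, at a rate near that of other genes. Of the 39 genes with at least 100 UMIs, 2 had a highest label with at least 20 UMIs and at least 3-fold above the next, Col24a1 in TEC:mTEC2 and Col28a1 in vSMC/PC, while 6.87% of the 16162 genes tested by the same rule did. The median fold of the highest label over the next was 1.37 for the collagen genes and 1.20 for all genes. The type IV genes had the lowest median fold of the 3 classes, 1.15. When the labels were pooled into the 5 lineages, a step chosen after these data had been seen, 13 of 39 genes led by 3-fold, with a share of 18.3% among all genes.

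The lineage leads fell into 3 lineages. Fibroblasts led for Col1a1, Col1a2, Col3a1, Col5a1, Col6a6, Col8a1 and Col14a1, which is 7 of 39, against 1.9% of all genes. Epithelium led for Col4a6, Col9a3, Col17a1, Col19a1 and Col23a1, which is 5 of 39, against 6.3% of all genes. Mural cells led for Col28a1, against 1.49% of all genes. With marker-free cells outside the fibroblasts, 14 of 38 genes led (16.0% of all genes): Col5a2 and Col16a1 joined the fibroblast genes and Col9a3 no longer passed. Col9a3 was still 2.31 CPM in marker-free epithelium against 0.2045 CPM in endothelium, the next lineage. Its fold was 0.679 because the rule sets a floor of 3 UMIs for the other lineages, so too few UMIs remained to call it. In these cells the 9 fibroblast genes stood beside a share of 2.53% of all genes, the 4 epithelial beside 4.17% and the 1 mural beside 1.7%. Since the filter was applied only outside the fibroblast labels, a gain of fibroblast leads is in part built in. In both sets of cells 0 collagen genes led in endothelium (3.03% of all genes, and 2.7% in marker-free cells) and 0 in blood-derived cells (5.54% and 4.91%).

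TMC4 had the lowest collagen content of the fibroblast labels but the highest level of several minor collagens. Against the pooled TMC1, TMC2 and TMC3, 9 of 39 genes were at least 2-fold higher (12.1% of all genes) and 16 of 39 at least 2-fold lower (10.4% of all genes). The median log2 ratio was -0.31 for the collagen genes and 0.08 for all genes. The genes higher in TMC4 were Col6a5, Col7a1, Col12a1, Col13a1, Col18a1, Col25a1, Col26a1, Col27a1 and Col28a1. Of these, Col26a1 had the largest ratio, 16.1-fold (12.9 to 20.4), at 31.2 CPM against 1.93, and 256 of 1249 TMC4 cells carried it (20.5%, thinned 3.28%), against 1.46% (thinned 0.517%) of the cells labelled Thymocyte. Col13a1 was 7.99-fold higher (7.13 to 8.95), Col7a1, the chain of the anchoring fibrils under epithelia, 6.64-fold at 93.0 CPM (6.04 to 7.31), and Col18a1 6.01-fold at 506 against 84.1 CPM. For all 9 genes TMC3 held the highest level among TMC1 to TMC3, with 7.196 CPM for Col26a1 and 40.9 CPM for Col7a1. The 5 mural markers, none of them at 0, moved with these labels, summing to 456 CPM in TMC4, 217 in TMC3, 27.5 in TMC2 and 20.4 in TMC1 against 3809 CPM in vSMC/PC. Their sum was also 774 CPM in TEC:mTEC1 and 409 CPM in TEC:mTEC-prol, so it was not particular to the mural label. The part of these markers in the TMC4 differences was not tested.

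The 16 lower genes held chains of types I, III and V, the type IV chains Col4a3, Col4a5 and Col4a6, and Col6a6, Col8a1, Col8a2, Col11a1, Col14a1, Col15a1, Col17a1, Col23a1 and Col24a1. The last of these rested on 3 UMIs in TMC4, with an interval that included no difference. Col4a5 had the largest ratio, at 5.37 CPM in TMC4 against 192 CPM in TMC1 to TMC3, which is 35.8-fold lower. A Col4a5 UMI was found in 36 of 1249 TMC4 cells (2.88%, thinned 0.320%) and in 68.5% of TMC2 cells (thinned 18.8%), at median depths of 8717 and 8270 UMIs. The cells labelled Thymocyte, which should lack the gene, carried it in 10.7% (thinned 2.07%), so the share in TMC4 was below that background. Col4a6 was 31.2-fold lower on 4 UMIs in TMC4 (12.1 to 115), Col14a1 30.7-fold (27.3 to 34.6), Col6a6 22.8-fold, Col11a1 19.5-fold and Col15a1 9.68-fold. Col4a1 did not share this difference, with 727 CPM in TMC4 against 836 CPM. Col6a1, Col6a2 and Col6a3 were within 1.21-fold, 1.13-fold and 1.14-fold.

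**Figure D4:**
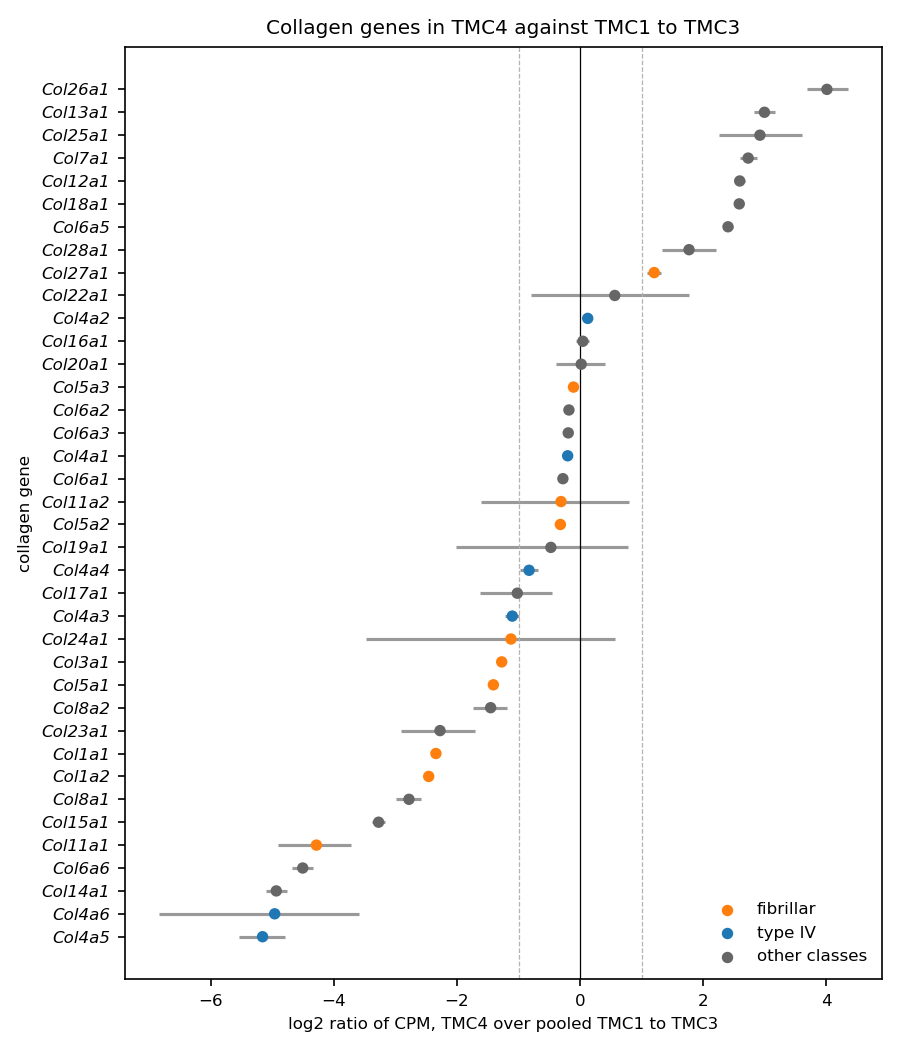
Log2 ratio of CPM in TMC4 over the pooled TMC1, TMC2 and TMC3 for the 38 collagen genes with at least 20 UMIs in these 4 labels together; lines are exact 95% counting intervals, dashed lines mark a 2-fold difference, orange points are fibrillar, blue type IV and grey other classes. Col26a1 is at the upper end with 16.1-fold and Col4a5 at the lower end with 35.8-fold, while Col4a1 and Col6a1 to Col6a3 lie between the dashed lines.

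When capFb was set against the pooled TMC1 to TMC4, a comparison that shares cells with the last one, 5 of 39 genes were at least 2-fold higher (6.57% of all genes) and 17 at least 2-fold lower (16.6% of all genes). The median log2 ratio was -0.76 for the collagen genes and -0.20 for all genes. The higher genes were Col1a1 at 4.02-fold (3.99 to 4.04), Col5a1 at 3.34-fold, Col12a1 at 2.77-fold, Col14a1 at 2.69-fold and Col1a2 at 2.33-fold. Among the lower genes, Col13a1 was 24.6-fold lower (14.6 to 45.2), Col7a1 22.0-fold, Col15a1 9.53-fold and Col8a1 8.79-fold. Col4a1 was 3.37-fold lower (3.26 to 3.48), at 242 against 816 CPM, and Col4a2 2.81-fold, while Col3a1 was 1.87-fold higher and Col6a3 was within 1.03-fold. Of the 17, Col22a1, Col25a1 and Col28a1 rested on 3, 1 and 3 UMIs in capFb.

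Among the members abundant in both, the endothelial labels EC:vEC and EC:capEC differed most in Col4a1 and Col4a2. EC:aEC was not part of this comparison. Between EC:vEC and EC:capEC, 1 of 39 genes was at least 2-fold higher in EC:vEC (5.45% of all genes) and 9 were at least 2-fold lower (6.49% of all genes), while 5 of the 39 had no ratio because both labels held at most 2 UMIs. Col4a1 was 3.34-fold lower in EC:vEC (3.17 to 3.52), with 494 against 1649 CPM, and Col4a2 2.43-fold lower (2.25 to 2.62). Col27a1 was 2.32-fold higher (1.76 to 3.08). The other 7 lower genes had 0 to 25 UMIs in EC:vEC, among them Col13a1 at 6.91 against 20.2 CPM and Col24a1 with 2 against 28 UMIs, and the intervals of Col8a2, Col11a1 and Col19a1 included no difference. In marker-free cells Col4a1 was 500.5 CPM in EC:vEC and 1698 CPM in EC:capEC, and 3 members were then at least 2-fold higher in EC:vEC.

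Between the epithelial labels cTEC and mTEC1, 6 of 39 genes were at least 2-fold higher in cTEC (6.03% of all genes) and 5 at least 2-fold lower (10.1% of all genes). Col4a6 was 2.53-fold higher in cTEC (2.18 to 2.94), Col23a1 2.39-fold, Col14a1 2.74-fold and Col25a1 4.21-fold on 49 against 15 UMIs. In marker-free cells Col4a6 was 114 against 44.5 CPM and Col14a1 300.5 against 84.7 CPM. Col5a3 and Col8a2 were also higher, at 2.16-fold each, but Col5a3 at 79.8 against 37.0 CPM was only 8.63 against 5.02 CPM in marker-free cells. Lower in cTEC were Col27a1 at 16.2 against 48.7 CPM, Col22a1 at 1.60 against 9.02 CPM, and Col9a3, Col24a1 and Col28a1 on 1, 6 and 3 UMIs in cTEC. In marker-free cells 3 members were lower. Col4a1 and Col17a1 were at 0.992-fold and 0.872-fold, while Col1a1 was 1.73-fold higher in cTEC (1.63 to 1.83) and Col3a1 1.44-fold (1.39 to 1.49).

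The label early Pr stood out from both. It had the highest level of Col12a1, Col4a6 and Col23a1 of the 18 labels and the highest epithelial level of Col7a1, 65.5 CPM against 54.3 in cTEC and 41.2 in mTEC1. For Col4a6 it was 1.19-fold above cTEC (1.08 to 1.31), for Col23a1 1.16-fold above cTEC (1.04 to 1.29), and for Col12a1 1.70-fold above TMC4 (1.63 to 1.79). In marker-free early Pr cells Col4a6 was 142 CPM, Col23a1 108 CPM and Col12a1 427 CPM, each slightly above its level over all cells.

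Medullary epithelial cells are known for transcribing genes of other tissues at low level, in part through Aire. The label TEC:mTEC2 (61 cells), which had the highest Aire level, held the highest levels of Col19a1, Col22a1 and Col24a1, and TEC:mTEC-prol (76 cells) that of Col9a3. Col19a1, a rare fibril-associated chain, was 458 CPM in mTEC2 (414 to 505), 175 in the goblet label, 135 in mTEC-prol, 70.7 in mTEC1, 41.5 in cTEC and 41.3 in early Pr, against 0.646 CPM in fibroblasts. It was found in 33 of 61 mTEC2 cells (54.1%, and 20% after thinning), against 0.730% (thinned 0.258%) of the cells labelled Thymocyte, and the top 10% of cells held 51.6% of its UMIs. Among the 40 mTEC2 cells with an Aire UMI, 27 carried Col19a1, against 6 of the 21 without, whose median depth was lower, 7652 against 17100 UMIs, and the levels were 501 and 305 CPM. The same cells held Col22a1 at 33.6 CPM with Aire and 31.5 without, Col9a3 at 42.3 and 5.25 CPM, and Col24a1 at 17.5 and 94.5 CPM, the last on 18 UMIs in 1 cell.

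Col9a3 and Col22a1 were less abundant but spread over several cells. Col9a3, a cartilage chain, was 39.5 CPM in mTEC-prol and 34.3 CPM in mTEC2, in 24 of 76 and 15 of 61 cells, and at most 2.64 CPM in the other epithelial labels of at least 50 cells. Col22a1, known from the junction of muscle and tendon, was 33.1 CPM in mTEC2, 24.1 in mTEC-prol and 9.02 in mTEC1. Outside epithelium both were at or under 2.96 CPM in every label of at least 50 cells.

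**Figure D5:**
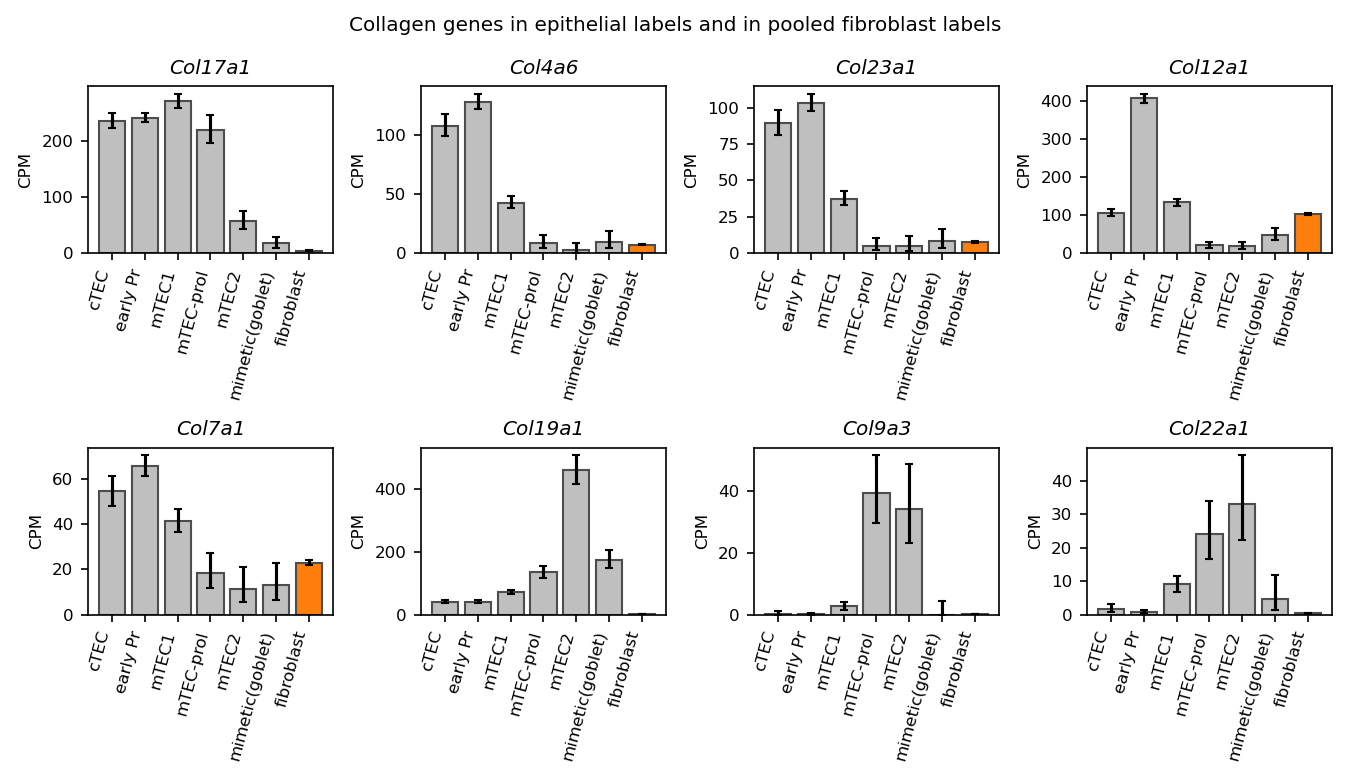
Level in CPM of 8 collagen genes in 6 epithelial labels (grey) and in the pooled fibroblast labels (orange), with exact 95% counting intervals; each panel has its own scale from 0. Col17a1 is between 221 and 271 CPM in 4 epithelial labels, Col4a6, Col23a1 and Col12a1 are highest in early Pr, and Col19a1, Col9a3 and Col22a1 are highest in mTEC2 or mTEC-prol.

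Col28a1, best known from Schwann cells of peripheral nerve, was led by the mural label. It was 70.9 CPM in vSMC/PC (62.2 to 80.4), 9.36-fold above TMC3, and 66.9 CPM in marker-free mural cells. The 239 UMIs came from 78 of 452 cells (17.3%, thinned 4.67%), with at most 15 in a cell, against 0.730% (thinned 0.517%) of the cells labelled Thymocyte. These 78 cells held 0 UMIs of Sox10, a transcription factor of Schwann cells, and they carried the mural genes Acta2 at 10.1, Notch3 at 4.72, Myh11 at 5.38 and Rgs5 at 4.47 UMIs per cell, against 9.31, 4.26, 7.87 and 7.14 in the other mural cells. The small label nmSC (39 cells) had 49.4 CPM of Col28a1 on 14 UMIs, and its 7 cells with Col28a1 held 7 UMIs of Sox10.

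Smaller labels also held fibrillar RNA. MEC (48 cells) held the mesothelial markers Msln, Upk3b and Wt1 at 4709 CPM in sum and a fibrillar level of 15090 CPM, of which 11750 CPM remained in marker-free cells. TEC:aaTEC2 (29 cells) carried an epithelial name and a fibrillar level of 25200 CPM, and 28 of its 29 cells had 10 or more Col3a1 UMIs and a UMI of Pdgfra, Dpt or Lum. Its cells are included in the pooled epithelium. The label nmSC held a fibrillar level of 12750 CPM over all cells and 3817 CPM in marker-free cells.

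Making a collagen needs enzymes that modify and fold the chains, proteases that trim them and oxidases that link them. Of 19 genes for synthesis and folding, 16 had their highest level in a fibroblast label, against 18.0% of the 16162 genes tested, the share to set beside the fibroblast counts of the lists that follow. None of the 19 led the next label by 3-fold (6.87% of all genes did). Ppib, a proline isomerase of the collagen modifying complex, was 984 CPM in TMC1. Serpinh1, the collagen chaperone, was 966 CPM in capFb and 926 in TMC1, and P4ha1, a prolyl hydroxylase subunit, 349 CPM in capFb. Of 11 processing and cross-linking genes, 8 were highest in fibroblasts, among them Pcolce, an enhancer of chain trimming, at 1331 CPM in TMC2. Of the oxidases, Lox at 272, Loxl1 at 364 and Loxl2 at 363 CPM were highest in capFb, as was the protease Bmp1 at 186 CPM. The remaining oxidases were highest elsewhere, Loxl3 in TMC1 at 17.3 CPM and Loxl4 in early Pr at 21 CPM. The 2 that led by 3-fold were elsewhere: Tll1, a relative of Bmp1, was 471 CPM in EC:vEC, 4.83-fold above the next label, and Adamts3, a procollagen protease, 133 CPM in Myeloid, 3.78-fold above the next.

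Of 12 fibril partners, which bind fibrils or lie along them, 11 were highest in a fibroblast label, with Dcn, the proteoglycan decorin, at 21260 CPM in TMC2, and Fbn1, Fn1 and Aspn led in capFb by 4.01-fold, 4.38-fold and 3.23-fold. The exception was Fmod, a small proteoglycan of fibrils, at 386 CPM in early Pr and 275 in cTEC. Of 15 basement membrane partners, 6 were highest in fibroblast labels, 6 in epithelial, 2 in the mural and 1 in an endothelial label. Lama2, a laminin chain, was 1806 CPM in TMC2. Lama3 and Lamb3, laminin chains found under hemidesmosomes, peaked at 136 CPM in mTEC1 and 130 CPM in cTEC. Pxdn, which cross-links type IV collagen, was highest in EC:capEC at 263 CPM. Of 8 collagen receptors, 4 were highest in fibroblasts. Itgb1, the common integrin chain, was highest in the goblet label at 1311 CPM, and Gp6, the platelet receptor, led in Myeloid at 32.3 CPM, while Ddr2 and Itga11 were highest in capFb and Ddr1 and Itga2 in cTEC. Of 9 turnover genes, 6 were highest in fibroblasts, with the protease inhibitor Timp2 at 3564 CPM in capFb, and the neutrophil collagenase Mmp8 had 434 of its 435 UMIs in Myeloid.

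The genes whose levels over the 18 labels were most like 3 chosen members, by Pearson r of log2(CPM + 1) among 10790 genes with at least 1000 UMIs, were as follows. For Col1a1 they were Htra3, Cd248, Rnase4, Medag and Nnmt, with r of 0.967 to 0.974, all highest in capFb. For Col4a1 they were Rbms1, Zfp36l1, Igfbp7, Kitlg and Mpdz, with r of 0.894 to 0.913, and their highest labels were spread over TMC4, EC:vEC, vSMC/PC and EC:capEC. For Col6a1 they were Dpt, Rarres2, Bgn, Pcolce and Serping1, with r of 0.978 to 0.989.

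The library of thymocytes gives the level of these genes in another cell population of the same organ. Among its 8376 cells outside the label B+myeloid, the fibrillar genes had 17.8 CPM in sum, and Col3a1 had 8 UMIs in all, 0.129 CPM. The label B+myeloid (170 cells) held 974 of the 982 Col3a1 UMIs, 407.5 CPM, and a fibrillar sum of 894 CPM. The blood-derived cells of the stromal library stood at 4104 CPM for the same sum, and at 228 CPM in marker-free cells.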

How the data were processed

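The deposited matrices hold unnormalized UMI counts for each gene in each barcode. They came from Cell Ranger 8.0.0, as the file headers state, on build mRatBN7.2 per the submitters' processing notes, which also name Seurat 5.3.0. The deposited cell tables give the authors' labels and the percent of mitochondrial UMIs, and annotated cells had 501 to 6999 genes and at most 4.99% mitochondrial UMIs. How doublets were treated is not given in the sources used here, and no doublet caller was run. The spatial sample was not used here.

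A cell's label was its projected label, or its initial cluster where none was projected. Counts were summed per label and divided by the label's UMIs, per 1000000. Intervals of levels are exact Poisson intervals, those of ratios come from the exact conditional binomial, and those of shares are Clopper-Pearson, all at 95%. Ratios used a floor of 3 UMIs where a group had fewer. A member was led by a label with at least 20 UMIs and 3-fold the next label. Likeness used log2(CPM + 1). Thinning drew 1000 UMIs per cell (seed 7), leaving out 83 cells below that. The call of a leading label was run on simulated label sums with counting error only, in which abundant genes were raised. These sums held no background RNA and no second cell in a barcode, so they do not cover such effects or rare members.

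All members are accounted for, and those with at least 100 UMIs are given with levels. Genes outside the family are the 5 most like Col1a1, Col4a1 and Col6a1, the most abundant gene of each list, genes led 3-fold, and some list genes chosen after their values were seen. A few listed genes are not reported here. The members, lists, lineages and alternatives were chosen with earlier results of these data known. With 1 sample per group no test was possible. Promoters came from RefSeq (GRCr8). Scripts ran in Python 3.11.15, with pandas 2.3.3 and NumPy 2.4.6 for the tables, SciPy 1.17.1 for intervals and matplotlib 3.10.9 for plots.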

Additional observations from a re-analysis of the deposited data

Results flagged for a closer look

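The 2934 stromal barcodes without a label, which enter no comparison above, held collagen UMIs at 6776 per 1000000 (6721 to 6831), 0.327-fold the level of annotated cells. Among them Col19a1 was 4.69-fold, Col22a1 5.57-fold, Col9a3 6.27-fold, Col24a1 3.35-fold, Col11a2 2.802-fold and Col17a1 1.65-fold the level of annotated cells. Fibroblast labels held 79000376 of the 131624350 annotated UMIs, which lowers that level for genes scarce in fibroblasts. Against pooled epithelium, Col19a1 was at 79.99 against 72.9 CPM, Col22a1 at 8.43 against 5.08 and Col17a1 at 86.2 against 219. Col9a3 had 52 UMIs, 38 of them in 67 barcodes, with an interval of 4.48 to 7.87 CPM against 3.63 in epithelium. These 67 unlabelled barcodes had more genes than any annotated cell and held 8023 collagen UMIs per 1000000. The 2039 unlabelled barcodes with fewer genes than any annotated cell held 2450 per 1000000.

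In the library of thymocytes, which enters no comparison between labels, a pair of cartilage chains stood above the level that a count of 0 allows. Col11a1 was 20.4 CPM in DP cells (18.4 to 22.6), on 386 UMIs, and 30.0 CPM in Pre DP-sig cells, against 1.75 CPM in DP-P and 1.94 CPM in DN cells. Col2a1 was 9.60 CPM in DN cells (7.84 to 11.6), on 104 UMIs, 10.0 CPM in Pre DP-sig cells, on 12 UMIs, and 5.92 CPM in DP cells, against 0 UMIs in B+myeloid. Neither gene followed Col3a1, which had 2 UMIs in all DP cells.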

How the results depend on the processing

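Of 271 recomputed values for 29 results, 205 stayed close to the value reported and 66 moved, and the cause was not tested unless the alternative's own construction shows it. Close meant within 1.5 times for a count, and inside the counting interval of the reported value for a ratio or share. A change of direction could be scored only for ratios, and 0 of these changed direction. No paired analysis was possible because there was 1 sample in a group and the results come from no test. The ratio of the fibrillar sum in fibroblasts to epithelium (8.77) was 8.13 with initial clusters, 11.2 thinned to 1000 UMIs, 39.1 with the background of the Thymocyte and B cell labels subtracted, 9.19 without the cells of the highest depth, 85.4 in marker-free cells, 8.997 with totals without collagen genes, 8.45 with totals without mitochondrial, ribosomal and haemoglobin genes, and 11.3 as a mean of the cells' own CPM. The blood-derived fibrillar ratio (0.175) was, for the same alternatives after the first, 0.132, 0.0447, 0.171, 0.00972, 0.170, 0.180 and 0.133. The value 0.0447 is low by construction, since the subtracted background came from the Thymocyte and B cell labels, which are in that pool. The epithelial type IV ratio (0.684) was 0.673 with initial clusters, 0.604 thinned, 0.650 with background subtracted, 0.645 in marker-free cells, 0.666 and 0.709 with the other totals, and 0.648 as a mean of cells. The endothelial type IV ratio (1.26) was 1.29 thinned, 1.37 with background subtracted, 1.31 in marker-free cells, 1.23 without collagen in the totals and 1.31 as a mean of cells. The mural type IV ratio (1.34) was 1.26 thinned, 1.38 with background subtracted, 1.81 in marker-free cells and 1.26 as a mean of cells. The Col1a1 share of type I UMIs in fibroblasts was 51.4% thinned and 51.2% as a mean of cells.

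Members led by a label (2) were 4 with initial clusters, 0 thinned, 0 among genes of at least 1000 UMIs, 4 at 2-fold and 1 with labels of at least 20 cells. Members higher in EC:vEC (1) were 2 thinned, 2 with background subtracted, 3 in marker-free cells, 3 as a mean of cells and 4 at 1.5-fold, and lower members (9) were 3 thinned, 5 with background subtracted and 15 at 1.5-fold. Members lower in cTEC (5) were 1 thinned, 1 among genes of at least 1000 UMIs and 3 in marker-free cells, and higher members (6) were 11 at 1.5-fold. Counts for TMC4 and capFb stayed within 1.5 times under the alternatives run. Thinning removes most UMIs, so depth limits the counts of rare members. Initial clusters gave no value for the endothelial and epithelial pairs of labels, and background subtraction none for Col4a6, Col17a1 and Col19a1, whose fibroblast level became 0.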
